A study of Rattus norvegicus with 14 samples.

Results

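10 genes of synaptic vesicle endocytosis were followed in the dentate gyrus of rats after a single session of spatial learning: Cltc, Clta, Cltb, Ap2a2, Ap2b1, Amph, Sh3gl2, Dnm1, Synj1 and Dnajc6. Their members on the array are the probe sets whose only gene symbol in the platform annotation is one of these names. This gave 13 probe sets for 10 genes, out of 15866 probe sets other than controls, and 12 of the 13 had a mean of at least 4 on the log2 scale over the 14 arrays and were tested. The study hybridised dentate gyrus RNA of 14 male Long-Evans rats, 3 to 4 months old, to 1 Affymetrix RAE230A array each. All rats had learned a standard water maze 2 to 3 weeks before, followed by a single 8-trial session in a water maze placed elsewhere, a probe swim of 90 s without the platform 1 h later, and tissue collection directly afterwards. In the session, the 7 learning rats swam to a visible platform that stayed in its place among orienting cues, whereas the 7 control rats swam to a visible platform that moved from trial to trial in surroundings without useful cues. Both groups therefore swam, saw the platform and made the probe swim, and untrained rats were not analysed here.

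After a synaptic vesicle has fused with the plasma membrane, its membrane and proteins are taken back up so that the terminal can release transmitter again. In the clathrin route the adaptor complex AP-2 gathers vesicle proteins and recruits clathrin, whose heavy and light chains form the coat, while amphiphysin and endophilin bind the curved neck of the bud and recruit dynamin, a GTPase that cuts it off. Synaptojanin then dephosphorylates the membrane lipid that holds the adaptors, and auxilin brings the chaperone Hsc70 to the coat to take it apart. Dentate granule cells use this machinery in their mossy fibre terminals. Since transcripts are made mainly in the cell body, RNA of a dentate dissection comes mainly from cells within the dissected tissue. These include granule cells, local interneurons and glia, but not the cortical neurons whose axons end there.

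None of the 10 genes differed between learning and control rats beyond adjustment for all probe sets tested. The brightest probe set of Ap2b1, the beta subunit of AP-2, was 1.13-fold higher in learning rats (unadjusted p = 0.0204, adjusted p = 0.303 in limma's moderated test over 9387 probe sets). Dnm1 (dynamin 1) and Cltc (clathrin heavy chain) had the next smallest p values, at 1.09-fold and 1.08-fold higher, and Synj1 (synaptojanin 1) had the largest difference in the other direction, at 1.15-fold lower. With the brightest probe set of each gene, 4 genes lay higher in learning rats and 6 lay lower. The median of the 10 differences was -0.03 log2 units, beside 0.0018 over all 6697 genes tested. Their median absolute difference was 0.07, beside 0.08 over all genes. At an unadjusted p below 0.05 there was 1 of the 12 tested probe sets, while 13.1% of all tested probe sets lay below it, of which 6.43% were higher and 6.67% lower in learning rats. At an adjusted p below 0.05 there were none among the members, and the share over all probe sets was 0%. For 0.405% of all probe sets the 2 groups of rats did not overlap, and this held for 0 of the 12 members.

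**Figure D1:**
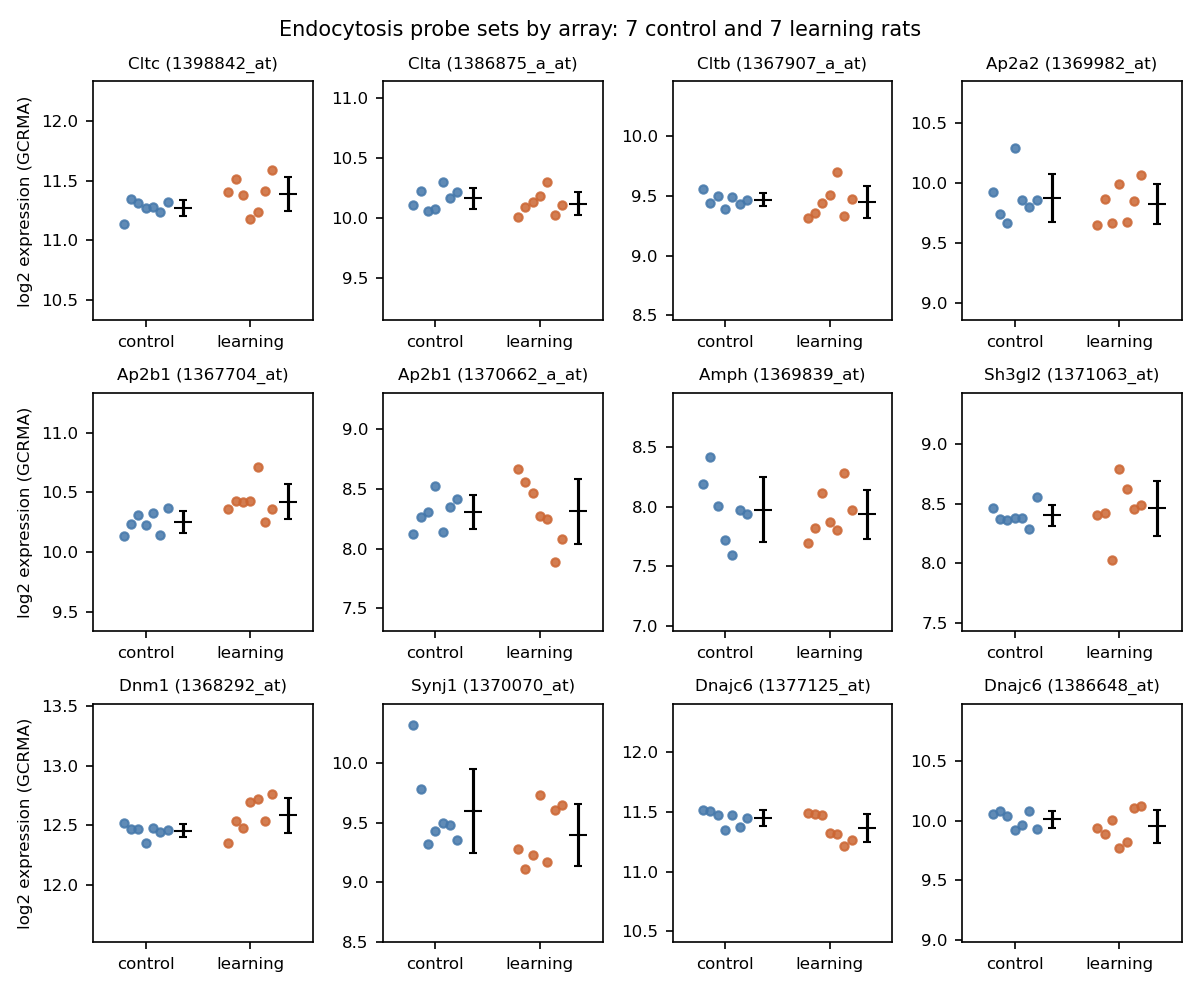
Log2 expression (GCRMA) of the 12 tested endocytosis probe sets, 1 panel each, with 1 point per rat (7 control rats in blue, 7 learning rats in orange) and the mean ± SD beside the points; every panel spans 2 log2 units. The groups overlap in all 12 panels, and the learning points of Dnm1, Cltb and Sh3gl2 scatter more widely than the control points.

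The arrays and the dissection set the frame for these values. Array medians lay between 5.09 and 5.12, and any pair of arrays correlated at 0.995 to 0.998 over all probe sets other than controls. Prox1, which marks granule cells, was at 10.3 ± 0.25 in control and 10.3 ± 0.17 in learning rats (SD, n = 7 each), and 3 of 4 granule cell markers on the array passed the filter, with Tdo2 at 2.71 in both groups. Dsp, another of them, averaged 6.37 in control and 6.81 in learning rats (unadjusted p = 0.00998, adjusted p = 0.251 in limma). Calb1, the remaining tested one, averaged 10.82 in control and 10.79 in learning rats (unadjusted p = 0.597 in limma). The mean of the 3 was 0.16 higher in learning rats, at 8.99 to 9.23 in control and 9.13 to 9.38 in learning rats. Of these 3 markers 2 lay higher and 1 lower, and Dsp differed most. The mean of the 5 tested CA1 markers, out of 7 listed, was 0.32 higher in learning rats, with 4 higher and 1 lower. It was 7.28 in control rats (6.88 to 7.92) and 7.60 in learning rats (7.39 to 7.79). Wfs1 differed most, at 6.84 ± 1.07 in control and 7.79 ± 0.38 in learning rats (SD, n = 7 each). Mpped1 was at 7.61 and 7.98, Fibcd1 at 4.06 and 4.37, Lmo3 at 8.39 and 8.39, and Itpka at 9.52 and 9.47. The mean of the 7 meningeal markers ranged from 4.81 to 7.80 in control and from 4.61 to 7.94 in learning rats (-0.39 in learning minus control). The choroid plexus mean differed most between the groups. It was -0.91 in learning minus control, at 6.67 to 7.98 in control and 6.34 to 6.61 in learning rats, without overlap. It rests on Ttr (transthyretin), at 7.47 ± 1.07 in control and 5.68 ± 0.14 in learning rats (SD, n = 7 each; unadjusted p = 0.000190, adjusted p = 0.153 in limma), and on Enpp2, at 7.30 and 7.26, while 3 further choroid plexus markers lay below the filter in both groups. The 5 general neuronal markers averaged 12.0 in both groups, with Map2 lower (12.48 against 12.33 in learning rats) and Stmn2 higher (10.92 against 11.09), at unadjusted p of 0.0272 and 0.0363 in limma. The part of these markers in the results was not tested. Fits with a marker mean as covariate are given beside the results. The choroid plexus means of the groups do not overlap, and the granule cell means overlap only from 9.13 to 9.23. Fits with either of these covariates therefore cannot fully separate the markers from the group. In such bulk RNA, fewer cells of a type and less RNA per cell cannot be told apart.

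The coat itself was measured by 4 probe sets, of which 3 passed the filter. Cltc encodes the clathrin heavy chain, which forms the legs of the clathrin unit. Its levels ran from 11.14 over a median of 11.28 to 11.35 in control rats, and from 11.18 over 11.41 to 11.59 in learning rats. Thus 5 of the 7 learning rats lay above the highest control rat, while learning replicates 4 (11.18) and 5 (11.24) lay within the control range. The difference was 0.12 ± 0.06 log2 units (SE; 95% confidence interval -0.02 to 0.25). Its adjusted p in limma was 0.452, from an unadjusted p of 0.0835. With the granule cell marker mean as covariate it was 0.19 (unadjusted p = 0.0484 in limma). With the CA1 marker mean it was 0.09 (unadjusted p = 0.277 in limma). With single arrays left out it ran from 0.08 without learning replicate 7 to 0.15 without learning replicate 4. The unadjusted p in limma then ran from 0.0218 to 0.185.

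The light chains regulate the assembly of the heavy chains and link the coat to actin. Clta (light chain A) ran from 10.06 over a median of 10.17 to 10.30 in control rats, and from 10.01 over 10.10 to 10.30 in learning rats. The groups overlapped almost completely, with a difference of -0.04 ± 0.06 (SE) and an interval from -0.16 to 0.08, or 0.892-fold to 1.05-fold. Cltb (light chain B) ran from 9.39 over 9.46 to 9.55 in control rats, and from 9.32 over 9.44 to 9.70 in learning rats. The control rats lay inside the learning range, and the difference was -0.02 ± 0.06 (SE; interval -0.14 to 0.11). A second Cltb probe set stood between 0.93 and 0.95 on all 14 arrays, below the filter, and carries no information on the difference. The adjusted p values in limma were 0.758 for Clta and 0.910 for Cltb.

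AP-2 was represented by its alpha and beta subunits. Ap2b1 encodes the beta subunit, which binds clathrin. Its brighter probe set ran from 10.14 over a median of 10.23 to 10.37 in control rats, and from 10.25 over 10.42 to 10.72 in learning rats. All 7 learning rats lay above the control median and 4 lay above the highest control rat, but the lowest learning rat, replicate 6, lay inside the control range. The difference was 0.17 ± 0.07 log2 units (SE; interval 0.03 to 0.31), and the two-sided exact permutation test over all 3432 assignments of the arrays gave p = 0.0111, where the smallest possible p is 0.000583. It was 0.12 without learning replicate 5, the highest array. With the CA1 marker mean as covariate it was also 0.12, and its unadjusted p in limma rose to 0.167 (adjusted p = 0.644). With the granule cell marker mean it was 0.09 (unadjusted p = 0.376 in limma), and with the choroid plexus marker mean it was 0.31 (unadjusted p = 0.00925, adjusted p = 0.472 in limma).

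A second Ap2b1 probe set, designed on another transcript record of the gene, gave another picture. It ran from 8.13 over a median of 8.31 to 8.52 in control rats, and from 7.89 over 8.28 to 8.67 in learning rats. Learning rats lay on both sides of the control range, 2 above it and 2 below it, and the difference was 0.0081 ± 0.11 (SE). The probe sets hardly moved together, with a correlation of 0.19 between their deviations from the group means over 14 arrays; the median over 1099 pairs of probe sets of one gene was 0.15. The gap between both differences was itself tested, as the brighter minus the dimmer probe set in a limma fit over all 1099 such pairs. It was 0.16 ± 0.12 log2 units (SE; interval -0.09 to 0.42; adjusted p = 0.528), and an exact permutation test gave p = 0.199. The probe sets of Ap2b1 were therefore not shown to differ in their response.

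Ap2a2 encodes an alpha subunit, which binds membrane lipid and accessory proteins. It ran from 9.67 over a median of 9.86 to 10.29 in control rats, and from 9.65 over 9.85 to 10.07 in learning rats. The medians almost coincided, and control replicate 4 (10.29) stood apart from the other 6 control rats, the next of which was at 9.92. The difference was -0.05 ± 0.09 (SE; adjusted p = 0.821 in limma), or 0.02 without that rat.

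The promoters of the genes were read to see whether the members share letters there that the choice of genes did not use. RefSeq windows of 300 bases (GRCr8), from 250 before to 50 after a gene's start, were found for all 10 genes. The cyclic AMP response element, a motif bound by CREB-family factors and spelled TGACGTCA on both strands, was present in 3 of the 10 windows, those of Ap2b1, Sh3gl2 and Cltb. It was present in 1.83% of all 33469 windows of that length. Its first base lay at -62 from the start in Ap2b1, -66 in Sh3gl2 and -102 in Cltb. The half-site TGACG or its complement CGTCA, which each full element also contains, was found in 6 of 10 windows (also in Ap2a2, Dnm1 and Synj1) and in 21.2% of all windows. The GC box GGGCGG, on either strand, was found in 5 of 10 and in 33.1% of all windows. TATAAA, on either strand, was found in 0 of 10 and in 14.2% of all windows. The member windows were rich in CG dinucleotides, with 15 to 49 each and a median of 22.5. The median over all windows, which include many genes that are not protein-coding, was 7. TGACGTCA, its half-sites and the GC box each contain a CG. Their shares over all windows were not matched for CG content, and no excess among the members was tested. These windows are shown because they hold the element (Ap2b1, Sh3gl2, Cltb) or, for Dnm1, belong to a member of small p with a half-site only; capitals mark the half-sites and the full elements. They lie at chr10:68600473-68600772 (Ap2b1, plus strand), chr5:104699020-104699319 (Sh3gl2, plus), chr17:10006465-10006764 (Cltb, plus) and chr3:36046240-36046539 (Dnm1, minus).
Ap2b1: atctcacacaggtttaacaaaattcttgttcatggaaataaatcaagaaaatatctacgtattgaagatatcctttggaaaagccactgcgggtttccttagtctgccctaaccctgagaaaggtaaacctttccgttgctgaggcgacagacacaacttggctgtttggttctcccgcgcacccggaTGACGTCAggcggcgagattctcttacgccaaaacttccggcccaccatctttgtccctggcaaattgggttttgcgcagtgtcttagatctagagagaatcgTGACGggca
Sh3gl2: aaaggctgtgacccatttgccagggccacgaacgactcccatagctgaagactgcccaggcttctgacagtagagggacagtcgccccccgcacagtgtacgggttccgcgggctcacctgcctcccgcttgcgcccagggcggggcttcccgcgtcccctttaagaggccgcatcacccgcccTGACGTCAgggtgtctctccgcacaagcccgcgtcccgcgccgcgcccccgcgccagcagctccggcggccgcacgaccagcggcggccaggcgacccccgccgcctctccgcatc
Cltb: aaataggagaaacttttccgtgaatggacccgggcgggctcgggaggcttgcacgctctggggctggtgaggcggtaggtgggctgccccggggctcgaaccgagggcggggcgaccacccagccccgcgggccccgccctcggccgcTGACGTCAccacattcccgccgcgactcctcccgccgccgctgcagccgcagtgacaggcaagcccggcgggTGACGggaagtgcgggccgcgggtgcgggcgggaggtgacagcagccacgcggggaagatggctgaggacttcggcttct
Dnm1: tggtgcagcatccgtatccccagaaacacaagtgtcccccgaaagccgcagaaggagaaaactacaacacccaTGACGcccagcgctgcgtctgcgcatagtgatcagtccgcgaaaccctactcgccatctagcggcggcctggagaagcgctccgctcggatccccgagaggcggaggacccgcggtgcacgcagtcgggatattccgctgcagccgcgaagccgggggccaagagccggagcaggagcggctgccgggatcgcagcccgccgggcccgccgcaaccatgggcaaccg

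The learning minus control differences of the 3 genes with a full element were 0.17 (Ap2b1, brighter probe set), 0.06 (Sh3gl2) and -0.02 (Cltb), and their intervals overlapped each other. The match is to letters only, and the arrays measured no binding. The windows of 5 members start well inside the outermost annotated ends of their genes, by 2617 bases for Cltc, 3798 for Ap2b1, 8931 for Dnm1, 19174 for Clta and 57667 for Dnajc6, so other start sites exist that the motif counts do not cover.

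Amphiphysin and endophilin sense membrane curvature and bring dynamin and synaptojanin to the bud neck. Amph ran from 7.60 over a median of 7.97 to 8.41 in control rats, and from 7.69 over 7.87 to 8.28 in learning rats. All learning rats lay inside the control range. The difference was -0.04 ± 0.12 (SE; interval -0.29 to 0.21; adjusted p = 0.905 in limma), and it was 0.03 without control replicate 2 and 0.09 with the CA1 or the granule cell marker mean as covariate.

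Sh3gl2 encodes endophilin A1, the brain form of endophilin. It ran from 8.29 over a median of 8.38 to 8.56 in control rats, and from 8.03 over 8.45 to 8.79 in learning rats. The learning rats reached beyond the control range on both sides, with replicate 3 lowest and replicate 4 highest. The difference was 0.06 ± 0.09 (SE; adjusted p = 0.804 in limma), and it varied from 0.0024 without learning replicate 4 to 0.13 without learning replicate 3. With the granule cell marker mean as covariate it was -0.0019.

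Dnm1 encodes dynamin 1, the dynamin of nerve terminals. It ran from 12.35 over a median of 12.47 to 12.52 in control rats, and from 12.35 over 12.54 to 12.76 in learning rats. Of the learning rats, 5 lay above the highest control rat, and replicates 4, 5 and 7 stood at 12.70 or more, while learning replicate 1 lay at the level of the lowest control rat. The difference was 0.13 ± 0.06 log2 units (SE; interval -0.0046 to 0.26) and gave p = 0.0574 unadjusted and 0.397 adjusted in limma; the exact permutation test gave p = 0.0612. Without learning replicate 1 it was 0.17 (unadjusted p = 0.0105, adjusted p = 0.241 in limma). Without learning replicate 7 it was 0.10, and the highest unadjusted p with single arrays left out was 0.127 in limma. With quantile normalization it was 0.09 (unadjusted p = 0.161 in limma). With the CA1 marker mean as covariate it was 0.09 (unadjusted p = 0.243 in limma), and with the granule cell marker mean 0.03.

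Synj1 and Dnajc6 act after scission. Synj1, the phosphatase that removes phosphates from inositol lipids, ran from 9.32 over a median of 9.48 to 10.32 in control rats, and from 9.11 over 9.28 to 9.73 in learning rats. Of the learning rats, 4 lay below the lowest control rat, and control replicate 1 (10.32) and replicate 2 (9.78) lay above every learning rat. Synj1 had the widest spread of the members, with a pooled SD of 0.31, and its difference of -0.20 ± 0.15 (SE; interval -0.52 to 0.12; adjusted p = 0.574 in limma) was -0.08 without control replicate 1. With the choroid plexus marker mean as covariate it was -0.51 (unadjusted p = 0.0415, adjusted p = 0.578 in limma).

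Dnajc6 encodes auxilin, the neuronal co-chaperone of uncoating, and was measured by a pair of probe sets. The brighter one ran from 11.35 over a median of 11.47 to 11.52 in control rats, and from 11.21 over 11.32 to 11.49 in learning rats. Of the learning rats, 4 lay below the lowest control rat and the other 3 lay above the control median. The difference was -0.08 ± 0.06 (SE; interval -0.20 to 0.03; adjusted p = 0.531 in limma). The dimmer one ran from 9.92 over 10.04 to 10.08 in control rats, and from 9.77 over 9.94 to 10.12 in learning rats, with a difference of -0.06 ± 0.06 (SE; adjusted p = 0.690 in limma). Both probe sets had the same sign, although the dimmer one was at 0.03 with the granule cell marker mean as covariate, and the test of their gap gave -0.03 ± 0.09 (SE; adjusted p = 0.909 over 1099 pairs in limma). Across single rats they did not move together: the correlation of their deviations from the group means was -0.14 over 14 arrays.

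**Figure D2:**
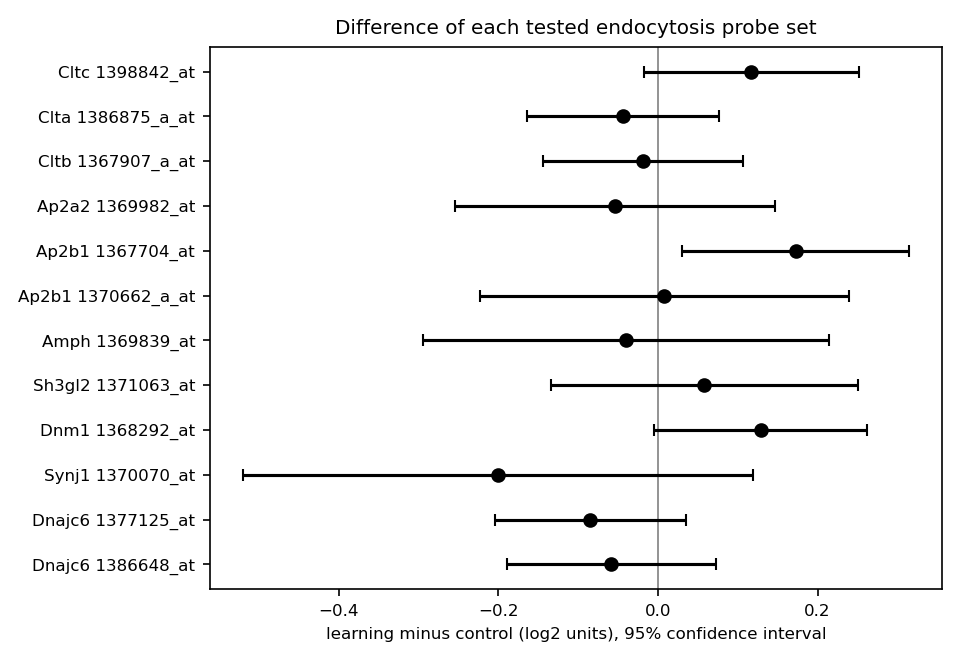
Learning minus control in log2 units (x axis) for each of the 12 tested probe sets (y axis), with the 95% confidence interval from limma, 7 rats per group. The interval of the brighter Ap2b1 probe set, 0.03 to 0.31, lies above 0, the other 11 include 0, and the widest is that of Synj1, from -0.52 to 0.12.

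The size of what these arrays could show follows from those intervals. They ran from -0.16 to 0.08 for Clta and from -0.14 to 0.11 for Cltb, and for Synj1 they leave room for 0.697-fold to 1.09-fold. The pooled SD within groups had a median of 0.12 over the members, beside 0.16 over all tested genes. It lay below the latter for 6 of the 10 genes and above it for Sh3gl2, Ap2a2, Amph and Synj1, and ran from 0.09 for the brighter Dnajc6 probe set to 0.31 for Synj1.

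The observed SDs differed between the groups for several members. Of the 12 tested probe sets, 9 had a larger SD among learning than among control rats, beside 54.5% of all tested probe sets, and the median ratio of both SDs was 1.85, beside 1.06. The ratio was at least 2 for 4 of them, beside 13.0% of all probe sets: 2.85 for Dnm1, 2.73 for Sh3gl2, 2.50 for Cltb and 2.07 for Cltc. Dnm1, for instance, had an SD of 0.05 in control and 0.15 in learning rats (n = 7 each). Amph, Synj1 and Ap2a2 had the larger SD in control rats. With 1 probe set per gene, 7 of 10 genes had the larger SD in learning rats, beside 54.6% of all tested genes. The median ratio was then 1.69, beside 1.06. These ratios are descriptions and were not tested. Dnm1, Cltb and Sh3gl2 also varied together over the rats, so they are not independent counts.

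Co-variation within groups was examined over the 14 arrays, with each value taken as its deviation from its group mean, 1 probe set per gene. Both light chains, Dnm1, Ap2b1 and Sh3gl2 formed the pairs with the highest correlations. Pearson's r was 0.75 between Cltb and Dnm1 (Spearman's rho 0.87), 0.69 between Clta and Ap2b1, 0.67 between Cltb and Ap2b1, 0.66 between Clta and Cltb, and 0.56 between Sh3gl2 and Dnm1. With the 2 arrays farthest out in the first gene left out, r was 0.68 for Cltb and Dnm1 but 0.38 for Clta and Ap2b1 and 0.25 for Cltb and Ap2b1. Learning replicate 5 held the highest learning value of Clta (10.30), Cltb (9.70) and Ap2b1 (10.72). The heavy chain gene ran the other way from light chain B, with r = -0.53 between Cltc and Cltb. Over all 45 pairs the median r was -0.03, beside 0.0025 over the pairs of all 6697 tested genes. An r above 0.5 was found for 6 pairs (13.3%), beside 5.76% of all gene pairs, and an r below -0.5 for 3 pairs (6.67%), beside 5.32%. All points share the array and the dissection, and pairs of genes share members.

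**Figure D3:**
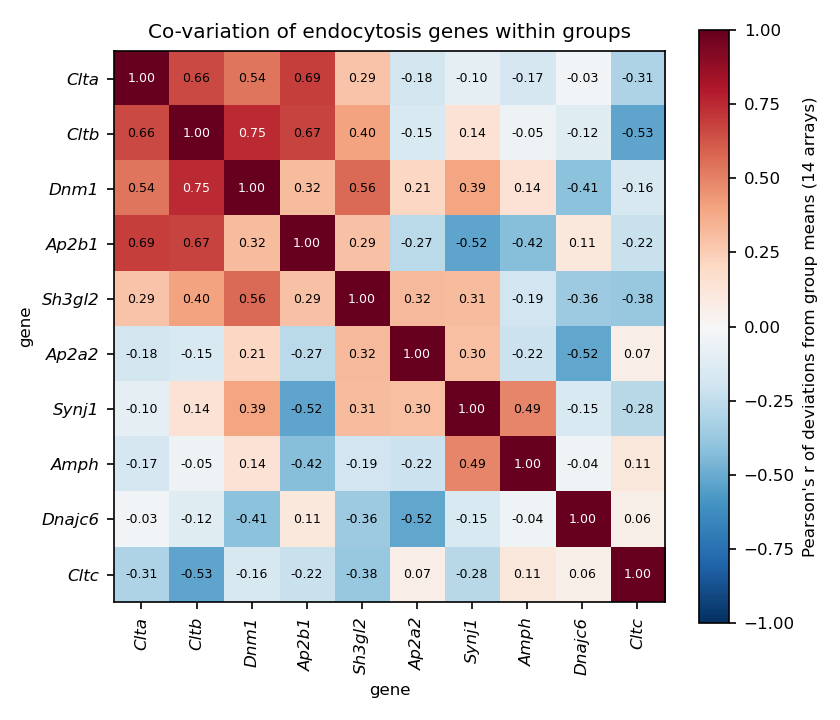
Pearson's r between the 10 endocytosis genes (both axes; brightest probe set of each), computed from deviations from the group means over 14 arrays; red is positive and blue negative. The gene order was set by hand and puts Clta, Cltb, Dnm1, Ap2b1 and Sh3gl2 in the upper left. Their pairs run from 0.29 to 0.75, and Cltc is at -0.53 with Cltb.

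Marker means were compared with the members in the same way. The correlation with the granule cell marker mean ranged from -0.36 (Cltc) to 0.50 (Cltb), and with the CA1 marker mean from -0.42 (Amph) to 0.48 (Clta). With the general neuronal markers Cltc had 0.67 and Synj1 -0.46, with the CA3 markers Synj1 had 0.60, and with the astrocyte markers Cltb had -0.46. With the oligodendrocyte markers Ap2b1 had -0.49 and Ap2a2 had 0.52, and with the choroid plexus markers Ap2b1 had 0.47 and Synj1 -0.43. With the meningeal marker mean all 10 lay between -0.35 and 0.20, although that mean varied most between rats. Beta-actin controls read at the 3' and the 5' end of the transcript, whose gap is a sign of RNA integrity, differed by 1.21 to 1.47 in control and 1.27 to 1.58 in learning rats, and this gap had r = -0.50 with Sh3gl2.

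For each member, the gene outside the list whose deviations were most alike over the 14 arrays was also taken. With 6687 genes to choose from, high values are found for any gene. They were Puf60, a splicing factor, for Clta (r = 0.92), Arhgap21 for Synj1 (0.92), the mitochondrially encoded COX2 for Dnajc6 (0.92), B3galnt1 for Amph (0.91), Atp5f1b, a subunit of ATP synthase, for Cltb (0.90), and Pebp1, a Raf kinase inhibitor, for Dnm1 (0.90). Pomk (0.88) was most alike to Sh3gl2, Mtmr12 (0.87) to Cltc, Mbtps1 (0.85) to Ap2b1 and Lin7b (0.83) to Ap2a2. No gene was nearest to more than 1 member.

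The wider endocytosis machinery was followed in a list of 78 further genes in 5 roles, of which 61 were on the array and 59 passed the filter. Of these 59, 31 lay higher in learning rats and 28 lay lower, and 0 passed adjustment over all probe sets. At an unadjusted p below 0.05, 6 of the 59 genes were higher and 3 lower in limma. Of all 6697 tested genes, 401 were higher and 446 lower at that level, and of all probe sets 6.43% and 6.67%. Their median difference was 0.003, beside 0.0018 over all tested genes.

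Coat and adaptor genes were higher in learning rats in 15 of 21 cases (71.4%, beside 50.6% of all tested genes), with a median of 0.05. Eps15, a scaffold of the coated pit that binds AP-2, averaged 9.88 ± 0.28 in control and 10.23 ± 0.18 in learning rats (SD, n = 7 each). Eps15 differed by 0.35 ± 0.11 (SE), with unadjusted p = 0.00843 and adjusted p = 0.242 in limma. Its second probe set differed by 0.27 ± 0.13 (SE). Necap1, an AP-2 binding protein of coated vesicles in brain, differed by 0.34 ± 0.13 (SE), and Epn2, the membrane-bending adaptor epsin 2, by 0.21 ± 0.08 (SE), although a second Epn2 probe set differed by -0.01. The remaining gene at an unadjusted p below 0.05 in limma was Hip1, which binds clathrin, at 0.30 ± 0.11 (SE). Hip1 was singled out after its values were seen. Adjusted p values in limma for Necap1, Epn2 and Hip1 lay between 0.280 and 0.289. With the choroid plexus marker mean as covariate Eps15 was at 0.0079, Epn2 at 0.10 and Necap1 at 0.22. With the granule cell marker mean they were at 0.23, 0.12 and 0.17. The unadjusted p in limma was above 0.05 in all 6 cases. Both marker means differ between the groups, so these fits cannot fully separate them from learning. Of the other subunits of AP-2, Ap2m1 (the mu subunit) differed by -0.04 ± 0.05 and Ap2s1 (the sigma subunit) by 0.15 ± 0.10 (SE; adjusted p = 0.533 in limma), and Snap91, the brain adaptor AP180, by -0.01 ± 0.06 (SE).

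Of 10 genes for membrane bending and scission, 8 were lower and 2 higher in learning rats (20% higher, beside 50.6% of all tested genes), with a median of -0.07 and 0 at an unadjusted p below 0.05. The 3 of smallest p were Snx18, a sorting nexin, at -0.21 ± 0.11 (SE), Pacsin2 (syndapin 2) at -0.16 ± 0.11 (SE), and Dnm2, the widely expressed dynamin, at -0.07 ± 0.06 (SE), which stood near 5 on the log2 scale in both groups. Without learning replicate 7, Snx18 was at -0.12 and Pacsin2 at -0.08, and without control replicate 5, Dnm2 was at -0.0170. With the replicate block Pacsin2 had an unadjusted p of 0.0216 in limma, and with the CA1 marker mean as covariate it was at -0.04 and Dnm2 at -0.17 (unadjusted p = 0.0234 in limma). With the choroid plexus marker mean Dnm2 was at 0.08. A second Pacsin2 probe set differed by -0.03. The endophilin paralogs Sh3gl1 and Sh3gl3 differed by 0.08 ± 0.09 and -0.04 ± 0.07 (SE), and Bin1 (amphiphysin 2) by 0.04 ± 0.08 (SE).

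Of 7 genes for uncoating and phosphoinositides, 4 were higher. Synj2bp, an outer mitochondrial membrane protein that binds synaptojanin 2, was higher by 0.21 ± 0.08 (SE; unadjusted p = 0.0179, adjusted p = 0.291 in limma), and its 2 dimmer probe sets differed by 0.10 and 0.11. With the choroid plexus marker mean as covariate it was 0.07. Dnajc5 (cysteine string protein) differed by 0.07 ± 0.06 (SE) and by -0.11 on a second probe set, and Synj2 stood at the filter level, at 4.06 in control and 4.03 in learning rats. Gak, the auxilin of most tissues, differed by 0.04 ± 0.07 (SE).

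Dynamin and its partners are dephosphorylated by calcineurin when calcium enters the terminal and phosphorylated again by Cdk5 and other kinases. Of 10 such kinase and phosphatase genes, 6 were higher and 4 lower. Ppp3cb, the beta catalytic subunit of calcineurin, differed by 0.17 ± 0.07 on its brighter probe set (SE; unadjusted p = 0.0237, adjusted p = 0.318 in limma) and by -0.25 ± 0.12 (SE) on the other. Dyrk1a, a kinase of dynamin and synaptojanin, differed by -0.28 ± 0.12 (SE), and Cdk5r1, which encodes the Cdk5 activator p35, by -0.17 ± 0.08 (SE), with adjusted p values of 0.348 and 0.351 in limma. With the CA1 marker mean as covariate Dyrk1a was at -0.17 and Cdk5r1 at -0.09, with the choroid plexus marker mean Cdk5r1 was at -0.36, and with the granule cell marker mean Ppp3cb was at 0.09.

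Of 11 genes of actin and endosomal traffic, 4 were higher and 7 lower. Sncb, which encodes beta-synuclein of presynaptic terminals, averaged 11.45 ± 0.07 in control and 11.30 ± 0.08 in learning rats (SD, n = 7 each). It differed by -0.15 ± 0.05 (SE), with unadjusted p = 0.00782 and adjusted p = 0.241 in limma. The difference was -0.09 on the second Sncb probe set and -0.10 with the granule cell marker mean as covariate. Rab11b, a GTPase of recycling endosomes, differed by 0.18 ± 0.12 (SE) and by -0.16 on a second probe set. Cttn (cortactin), which binds dynamin and actin, differed by -0.14 ± 0.10 (SE) and by 0.17 on its other probe set. Without learning replicate 1 the former was -0.08, and with the granule cell marker mean as covariate it was -0.27. For Rab11b it was 0.03 with the choroid plexus marker mean and 0.10 with the granule cell marker mean.

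**Figure D4:**
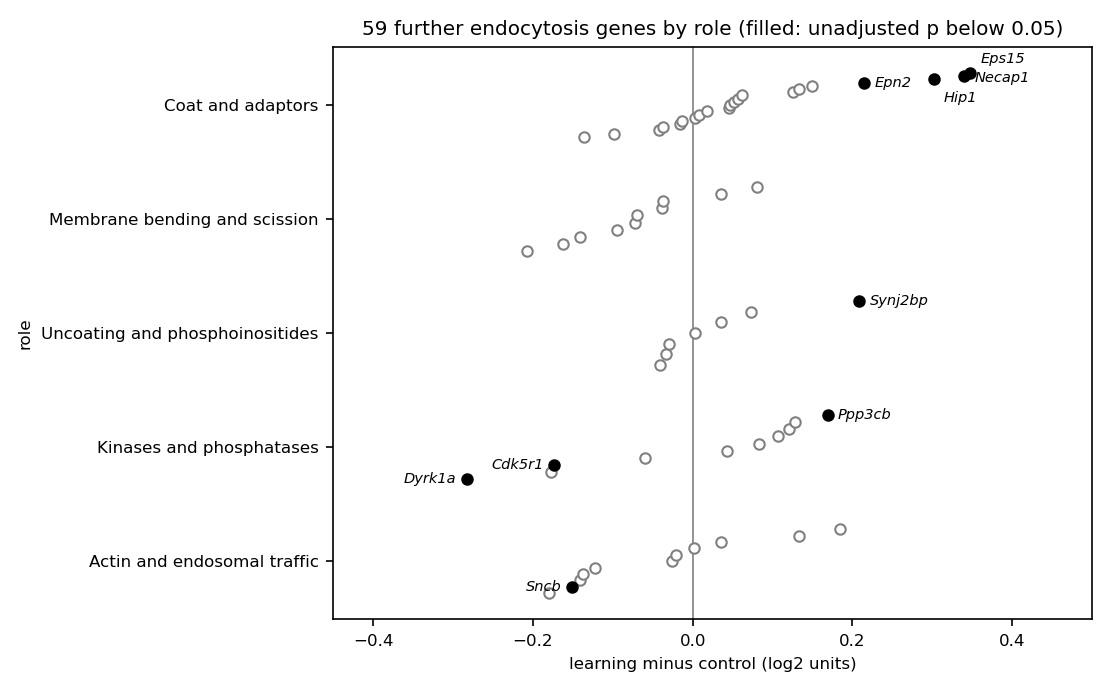
Learning minus control in log2 units (x axis) for 59 further endocytosis genes in 5 roles (y axis), 1 point per gene by its brightest probe set; filled and named points have an unadjusted p below 0.05. The 4 named points of the coat and adaptor role lie at 0.21 to 0.35, and 8 of the 10 genes of membrane bending and scission lie below 0.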

How the data were processed

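Total RNA of microdissected dentate gyrus was hybridised to Affymetrix RAE230A arrays, 1 per rat, 7 control and 7 learning, per the labels' protocols. The authors deposited log2 values, 1 per probe set and array, from GCRMA, per the submitters' processing notes; the sources used here do not give its version. GCRMA compresses differences near background. Of 15923 probe sets, 57 controls were left out, 6479 had a mean below 4 over the 14 arrays, and 9387 were tested. The 13 member probe sets were matched by symbol, and all 13 symbols are current in RefSeq.

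The difference between groups was estimated in limma 3.58.1 (functions lmFit and eBayes; R 4.3.3) over all tested probe sets, with Benjamini-Hochberg adjustment and a threshold of 0.05; the fit was tested on simulated data. The number of arrays limits the precision. Replicate numbers come from the sample titles and are not stated to pair rats. Exact permutation tests were two-sided. The brightest probe set over all arrays stood for a gene. The members, gene lists, markers and tests were chosen with earlier results of these data known. The genes named are all members, the 3 of smallest unadjusted p per role, the gene most alike to each member, and markers; Hip1, Snap91 and the paralogs and subunits of members fall outside this rule and were chosen after their values were seen. Alternatives were no filter or a stricter one, median centring, quantile normalization, array weights, a robust prior with a trend, a replicate block, 5 covariates and each array left out in turn; the choroid plexus and granule cell covariates and the replicate block for the probe set gaps were chosen later, with the data in view. Promoter windows are from RefSeq (GRCr8). Figures were drawn with matplotlib 3.10.9.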

Additional observations from a re-analysis of the deposited data

Results flagged for a closer look

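In 54 groups of 7 rats (12 member probe sets and 15 further genes, both groups), 4 had 1 rat set apart from the rest by more than a Dixon test allows at the 95% level, which chance gives in about 1 of 20 groups. Ap2a2 stood at 10.29 in control replicate 4, with the next control rat at 9.92. The brighter Ap2b1 probe set stood at 10.72 in learning replicate 5, with the next learning rat at 10.43. Epn2 stood at 9.94 in control replicate 6, with the next control rat at 9.70. Snx18 stood at 5.61 in learning replicate 7, with the next learning rat at 6.06.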

How the results depend on the processing

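The count of member probe sets at an unadjusted p below 0.05 in limma was 1 as reported. It was 2, with Dnm1 added, with no filter on low values, with median centring and with a trended robust prior, and 0 with the CA1 marker mean as covariate. It was 2 with the choroid plexus marker mean (Ap2b1 and Synj1); with the granule cell marker mean it was 1, Cltc in place of Ap2b1. Over all probe sets 777 and 430 lay below it with these covariates, both of which differ between the groups; the cause was not tested. With single arrays left out it ranged from 1 to 2. It was 2 without learning replicate 1 or 3, where Dnm1 was added, and 2 without learning replicate 4 or 5, where Cltc was added. No member passed the adjusted threshold under any alternative. Over all probe sets the count past it was 0 under the other alternatives and ranged from 0 to 1 with single arrays left out (1 without control replicate 6, learning replicate 1 or learning replicate 4). The count at an unadjusted p below 0.05 ranged from 944 to 1377 with single arrays left out. The median over the 10 genes ranged from -0.03 to 0.0049 with single arrays left out.

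Of 322 single-gene values under 12 other alternatives, 314 kept their direction. The dimmer Ap2b1 probe set was at -0.0216 with array weights, and Amph at 0.0869 with the CA1 marker mean as covariate. With the choroid plexus marker mean Clta was at 0.0044, the dimmer Ap2b1 probe set at -0.0129 and Dnm2 at 0.0761, and with the granule cell marker mean Amph was at 0.0855, Sh3gl2 at -0.0019 and the dimmer Dnajc6 probe set at 0.0264. With single arrays left out, 10 of 378 values changed direction, in Cltb (-0.0606 to 0.0029), Ap2a2 (-0.0951 to 0.0151), the dimmer Ap2b1 probe set (-0.0510 to 0.0779) and Amph (-0.103 to 0.0330). The gap between the Ap2b1 probe sets ranged from 0.10 to 0.23, and that of Dnajc6 from -0.0563 to 0.0250; the latter was 0.025 with the beta-actin difference as covariate.

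With the replicate number as a block, the adjusted p of Ap2b1 was 0.248 in limma. Of the member probe sets, 1 lay below an unadjusted p of 0.05, and 1330 of all tested probe sets did. The replicate block changed no call past the adjusted threshold; Pacsin2 went from an unadjusted p of 0.175 to 0.0216 in limma. Rats of the same number correlated at -0.28 to 0.26 in their deviations, above 0.1 in 4 of 7 pairs. No values for rats of different numbers are given beside these, so they cannot decide whether the numbers pair rats.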
